A study of Mus musculus with 12 samples.

Results

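The transcripts described here are measured by 4729 array probes that carry no gene name. Each is a 60-base probe whose name on the array is a stretch of a chromosome with a strand, in the mouse build mm9 that the file headers give, for example chr1:87343550-87362900 forward. A probe was included when its name was such an interval and its signal stood well above background, by the scanner software's own test, on at least 6 of the 12 arrays. Of 16166 interval probes on the array, 4729 (29.3%) met that rule outside the stretch from 85 to 86 Mb of chromosome 1, whose 15 further probes were left out by position. The array kept 55630 gene probes in all, of which 27583 met the same detection rule and were tested. Because the members were selected on measured values, namely the detection flags of all 12 arrays, their levels and their detection are given as a description without a test.

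The arrays hold RNA of the descending aorta of male C57BL/6 mice, 6 aged 6 months and 6 aged 20 months, with 1 mouse per array. All the aortas had been rinsed with buffer through the heart and freed of surrounding fat, no mouse carried a stated transgene or treatment, and age was the one stated difference between the groups. The labels call them individual mice, so the 6 values at an age measure the spread between animals.

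Long noncoding RNAs are made, spliced and often polyadenylated like messenger RNAs but have no long reading frame. Many are rare per cell and vary between tissues more than messenger RNAs do, and many start near a protein-coding gene, on its own strand or on the opposite one. Some abundant ones stay in the nucleus, among them Malat1, found in nuclear speckles, and Neat1, which builds paraspeckles. In the aorta, probes on intervals of this kind report transcripts of smooth muscle, endothelium, fibroblasts and any other cells in the sample together. In such bulk RNA, fewer cells of a type and less RNA per cell cannot be told apart.

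The sequences on which the results turn are shown first, 5′ to 3′, as the deposited array files hold them, with the probe's own mm9 position and strand. The first pair is the chromosome 1 member that rose with age and a probe left out by position, with the run of 37 bases that both hold in capitals. Next come the chromosome 12 member that rose and the members on chromosomes 2 and 14 with the smallest adjusted p among those whose values at 6 months all lay above those at 20 months.
chr1:87343550-87362900 forward, probe chr1:87351659-87351718 plus strand: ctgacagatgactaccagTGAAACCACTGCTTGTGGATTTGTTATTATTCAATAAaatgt
chr1:85117750-85129200 forward, probe chr1:85120161-85120220 plus strand: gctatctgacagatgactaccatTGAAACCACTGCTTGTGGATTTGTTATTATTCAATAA
chr12:20620869-21028045 forward, probe chr12:20647747-20647806 plus strand: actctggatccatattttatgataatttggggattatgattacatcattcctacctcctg
chr2:94008913-94019798 reverse, probe chr2:94011595-94011654 minus strand: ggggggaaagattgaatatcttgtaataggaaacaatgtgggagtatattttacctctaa
chr14:52874069-52877398 reverse, probe chr14:52874312-52874371 minus strand: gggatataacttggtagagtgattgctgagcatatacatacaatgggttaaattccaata

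Of the members with the highest signal, 3 are shown with each CG in capitals, because their base composition differs widely. The probe on chromosome 14 holds 10 CG, and those on chromosome 19 hold 3 and 2.
chr19:5801802-5802597 reverse, probe chr19:5802130-5802189 minus strand: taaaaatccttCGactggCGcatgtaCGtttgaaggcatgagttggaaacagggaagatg
chr19:5801802-5802597 reverse, probe chr19:5802267-5802326 minus strand: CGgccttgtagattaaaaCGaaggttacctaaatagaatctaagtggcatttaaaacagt
chr14:78924115-78938125 forward, probe chr14:78936616-78936675 plus strand: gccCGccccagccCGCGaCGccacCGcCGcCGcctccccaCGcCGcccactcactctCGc

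For 2 intervals with signal on both strands the probes themselves overlap, by 30 and 34 bases. The overlap is in capitals and reads as the reverse complement in the partner.
chr14:115423660-115463160 forward, probe chr14:115440273-115440332 plus strand: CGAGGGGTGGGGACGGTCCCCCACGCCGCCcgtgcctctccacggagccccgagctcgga
chr14:115423660-115463160 reverse, probe chr14:115440243-115440302 minus strand: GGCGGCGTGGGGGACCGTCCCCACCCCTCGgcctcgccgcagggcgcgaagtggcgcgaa
chr5:35975265-35982561 forward, probe chr5:35976912-35976971 plus strand: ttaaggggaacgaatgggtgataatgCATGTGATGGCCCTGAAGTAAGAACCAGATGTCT
chr5:35975265-35982561 reverse, probe chr5:35976938-35976997 minus strand: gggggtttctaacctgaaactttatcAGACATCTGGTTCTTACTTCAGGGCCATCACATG

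The members that varied most between mice of 1 age include 2 near-identical probe pairs of chromosome 5, shown with the 1 or 2 bases that differ in capitals, and the last 3 are members with the run GAGAGAGA that were low on the same 2 arrays, shown with that run in capitals.
chr5:14943275-14944205 forward, probe chr5:14943980-14944039 plus strand: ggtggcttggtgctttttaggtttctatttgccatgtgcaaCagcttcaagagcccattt
chr5:15146475-15170100 forward, probe chr5:15168385-15168444 plus strand: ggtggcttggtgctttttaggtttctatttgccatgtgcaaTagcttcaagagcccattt
chr5:14943275-14944205 forward, probe chr5:14944100-14944159 plus strand: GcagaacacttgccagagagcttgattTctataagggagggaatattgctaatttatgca
chr5:15146475-15170100 forward, probe chr5:15168505-15168564 plus strand: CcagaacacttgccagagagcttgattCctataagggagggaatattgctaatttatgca
chr4:98943050-98959998 reverse, probe chr4:98945330-98945389 minus strand: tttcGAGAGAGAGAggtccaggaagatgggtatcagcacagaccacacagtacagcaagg
chr12:77544397-77564122 forward, probe chr12:77553108-77553167 plus strand: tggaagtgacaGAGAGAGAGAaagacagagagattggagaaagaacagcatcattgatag
chr4:33375464-33377138 reverse, probe chr4:33376044-33376103 minus strand: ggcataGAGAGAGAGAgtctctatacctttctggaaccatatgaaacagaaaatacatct

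The members fall on 2013 of the 3540 intervals of the array. Of these intervals, 398 had a member on both strands and 1615 on a single strand, which makes 2411 pairs of an interval and a strand. The strands were about equally represented, with 2298 forward and 2431 reverse probes. An interval strand held 1 to 10 members, and 1242 held a single member. Probes of 1 interval can report 1 transcript, so they are not independent. Chromosome 5 held the most members, 341 of its 962 interval probes (35.4%), followed by chromosomes 1 and 2 with 333 each. The X chromosome held 146 of its 577 (25.3%). A further 37 members had no position on a chromosome.

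All levels are log2 signals relative to the 75th percentile of the gene probes of the same array, so that 0 is the level of that percentile. A level also depends on how well a probe binds, and levels of different probes are therefore not ranked as amounts of RNA. The members' median level was -1.90, with quartiles of -2.78 and -0.49 and a range of -3.99 to 9.63. Most members were dim, and 938 of them (19.8%) lay above 0 against 50.3% of all tested probes. Levels below -2 were found for 47.2% of the members and for 23.1% of all tested probes. Forward members had a median of -1.81 and reverse members of -1.95.

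Of the members, 3570 stood above background on all 12 arrays and 160 on exactly 6. At the other side of the rule, 161 interval probes reached 5 arrays, and 8317 reached none. The 160 probes just inside had a median level of -3.46 and the 161 just outside one of -3.56. Among the dimmest inside were chr2:129402701-129403112 reverse at -3.99, chr2:165802256-165805186 reverse at -3.83, chr5:137392195-137426421 reverse at -3.83 and chr4:101010948-101032148 reverse at -3.78. Among the brightest outside were chr9:75316023-75344401 reverse at -3.19, chr8:94841965-94881130 reverse at -3.20, chr2:167388900-167402475 reverse at -3.25 and chr8:57979699-57982293 forward at -3.26. The groups inside and outside the rule thus overlapped in level.

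At the upper end, 62 members had a level above 5. The member with the highest level was the chr19:5801802-5802597 reverse probe at position 5802130, which lies 6.42 kb from the probe of Malat1 on the same strand. Its signal was 9.50, 9.47, 9.52, 9.71, 9.94 and 9.58 in the mice of 6 months and 9.64, 9.60, 9.45, 9.62, 9.68 and 9.83 in those of 20 months. The values of both ages overlapped fully, and the change, 20 months minus 6 months, was 0.02 (SE 0.10). The second probe of the interval, shown above, was at 8.10. Whether this interval belongs to Malat1 was not examined, since no mm9 gene annotation was used here.

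Among the other members with the highest levels were chr14:78924115-78938125 forward at 8.68, chr12:73838608-73862621 reverse at 7.99, chr17:17481706-17482457 reverse at 7.92, chr2:31714946-31716972 forward at 7.90 and chr11:22681800-22707775 reverse at 7.65. The first of them varied little between mice, with an SD of 0.11 at 6 months and 0.14 at 20 months (n = 6 each). The nearest detected named probes were those of Akap11 at 23.4 kb, which encodes an anchoring protein for protein kinase A, and of Ppm1a, Gm6712, Abl1 and Gm12058 for the others. The chromosome 11 probe overlaps the position of a Gm12058 probe to within 8 bases and shares at least 30 bases with probes of Gm12058 and of Rps16, a protein of the small ribosomal subunit. Its signal therefore cannot be ascribed to the interval alone.

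**Figure D1:**
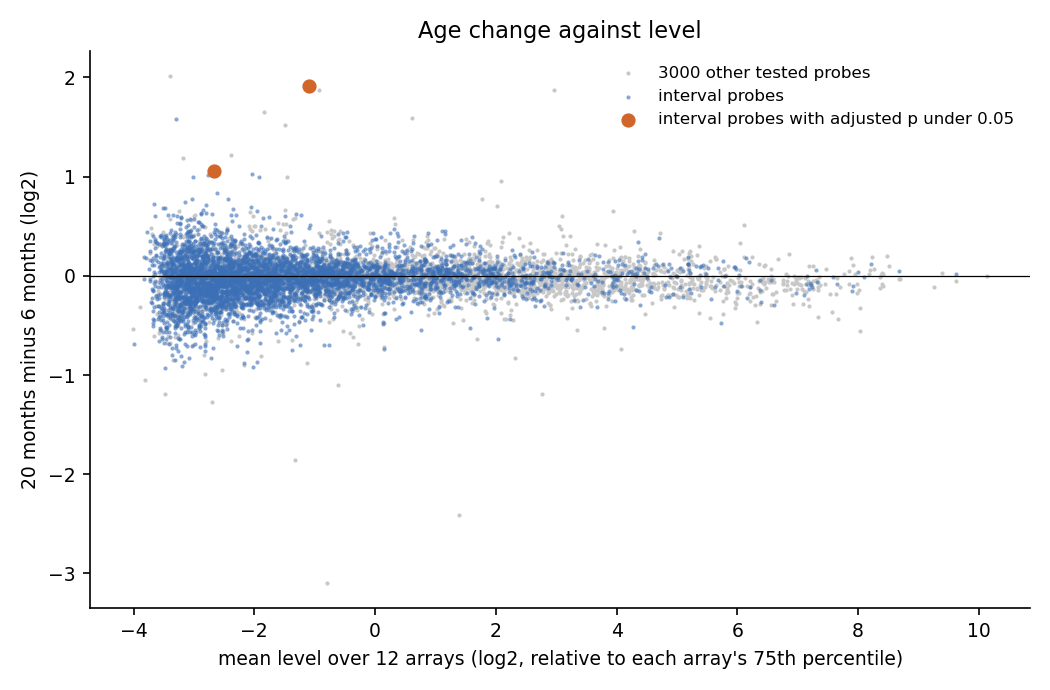
Change with age (20 minus 6 months, log2) of each of the 4729 members against its mean level (log2 relative to the array's 75th percentile), with the 2 members that passed the test marked and a sample of the other tested probes in grey. Most members lie at levels below 0 and near a change of 0, and the marked members lie at changes of 1.92 and 1.06.

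Whether the intervals lie between genes was checked against the positions of the named gene probes on the same array. For 3588 members (75.9%) no named gene had a probe inside the interval on either strand. A named gene had a probe inside the interval on the member's own strand for 706 members, a protein-coding gene for 305 of them, and on the opposite strand alone for 435. The word intergenic is thus not borne out by the array's own probes for 1141 members, which are called interval transcripts here. At the level of single probes, 80 members overlapped the position of a named gene's probe and 68 shared a run of at least 30 bases with one, while 32 shared such a run with its reverse complement. Beside the Rps16 case these included a probe matching Cox5b, a subunit of cytochrome c oxidase (level 6.39). RNA of identical sequence from a gene and from an interval cannot be separated by hybridisation.

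Members lay nearer to expressed genes than did interval probes that were not detected. A named gene probe above background was found within 1 kb of 437 members (9.24%) and of 4.27% of the 11422 undetected interval probes. Within 5 kb the shares were 23.3% and 15.0%, and within 100 kb they were 83.3% and 77.3%. The share on the gene's own strand was also higher. Of the 437 members within 1 kb, 299 (68.4%) were on the strand of the gene, against 28.3% of the undetected probes. Within 5 kb, 507 members lay after the gene's probe in its own direction of transcription and 206 before it on the same strand. On the opposite strand 188 lay before it and 202 after it. For undetected probes the corresponding numbers were 422, 152, 420 and 715. Probes that overlap the position of a named gene's probe were not left out. These shares describe what detection selected and carry no test.

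Base composition went with detection as well. The median GC content was 45% in members and in undetected probes. At the extreme, however, 128 members (2.71%) had a GC content of 70% or more, against 36 undetected probes (0.315%). The detected share was 20.9% of probes under 40% GC and 78.0% of those at 70% or above, and 16 of the 100 brightest members were in that GC-rich class. Whether transcripts or hybridisation of GC-rich probes set this was not tested. The polyadenylation signal AATAAA, searched as these 6 letters in the sense of the probe, was present in 3.98% of members, 3.89% of undetected probes and 12.4% of all tested probes. Among the 100 brightest members 11 carried it. The same letters on the other strand were found in 2.73% of members and 3.87% of all tested probes.

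The arrays differed in ways that touch these dim probes. Between 47.5% and 50.2% of gene probes stood above background on 10 arrays, but 55.8% did so on 6 months replicate 4 and 55.5% on 20 months replicate 5. The tissue label was borne out by smooth muscle markers, of which 5 of 5 were above background with levels of 7.04 to 10.1. Markers of other cells were present as well. The aortas had been freed of surrounding fat, but fat markers were detected on these arrays. White fat markers (4 of 4 above background) averaged 4.72 to 5.49 at 6 months and 4.68 to 5.68 at 20 months. Brown fat markers (6 of 6) averaged 4.34 to 5.77 and 4.12 to 5.50. Heart muscle markers (8 of 8 above background) averaged -1.74 to 1.89 at 6 months and -1.62 to 2.96 at 20 months, highest in 20 months replicate 1. T and NK cell markers (6 of 8) averaged -0.58 to 1.74 and -0.41 to 0.24, highest in 6 months replicate 4. Mesothelium markers (5 of 5) averaged -2.65 to -0.02 and -4.40 to -1.63. Over 13 marker lists, 1 gene passed the test, the mast cell tryptase Tpsb2, with a change of 0.60. The 12 arrays came from 3 slides with 2 arrays of each age on every slide, but all 20-month arrays lay in the same column of their slides and no 6-month array did, so slide column and age cannot be told apart.

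The comparison of 20 with 6 months asks which of these transcripts differ in the aged aorta. Of the 4729 members 2 passed the test, the chromosome 1 and chromosome 12 members shown first, and both rose (limma, adjusted p under 0.05 by Benjamini-Hochberg over all 27583 tested probes). Over all tested probes 71 passed, which is 0.257%. With slide as a fixed block 6 members passed, 3 higher and 3 lower, among 87 probes in all, and with slide as a random block 6 passed, 4 higher and 2 lower, among 105. Both members called without the block were among the 6 in either fit. Of the 71 probes that passed without the block, 61 were higher (0.221% of all tested probes) and 10 lower (0.0363%) at 20 months. By effect on single values, 14 members had all 6 values at 20 months above all 6 at 6 months and 7 had them all below, against 0.580% and 0.189% of all tested probes. An unadjusted p under 0.05 was found for 356 members (7.53%) and for 7.56% of all tested probes. The members' median change was -0.02, as was that of all tested probes, and 43.5% and 43.8% were positive. Changes of at least 1.5-fold were measured for 92 of the 4729 members and for 521 of all 27583 tested probes. The median standard error of a member's change was 0.15 and that of all tested probes 0.12.

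The chr1:87343550-87362900 forward transcript rose 3.78-fold. Its signal was -1.59, -2.06, -1.26, -2.06, -2.99 and -2.35 in the mice of 6 months and -0.32, -0.39, 0.28, 0.04, 0.21 and -0.62 in those of 20 months. All 6 old mice lay above all 6 younger ones, and the highest younger value, in replicate 3, was still below the lowest old one. The means were -2.05 ± 0.60 and -0.13 ± 0.36 (SD, n = 6 each), a change of 1.92 (SE 0.26, limma adjusted p = 0.00592), and the probe was above background on all 12 arrays. The nearest detected named gene probe is that of Sp110, an interferon-induced nuclear body protein, 122 kb away on the opposite strand.

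This member's sequence is not unique on the array. Besides it, 2 probes share at least 18 bases with it, the longest run being 50 bases, and they changed by 2.19 and 2.21. One of them is the left-out probe of chr1:85117750-85129200 shown above, with a change of 2.19 (SE 0.29). The other has no position on an assembled chromosome. The place from which the signal comes thus cannot be told apart among these sequences. Within 1 Mb of the probe, 23 other tested probes changed by -0.37 to 0.55 and 0 of them passed the test.

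The chr12:20620869-21028045 forward transcript rose 2.08-fold. Its signal was -3.13, -3.27, -3.32, -3.12, -2.89 and -3.43 at 6 months and -2.15, -2.24, -2.49, -2.20, -1.67 and -2.08 at 20 months. The ages did not overlap, and the narrowest gap lay between the younger replicate 5 and the old replicate 3. The means were -3.19 ± 0.19 and -2.14 ± 0.27 (SD, n = 6 each), a change of 1.06 (SE 0.13, limma adjusted p = 0.00349). The probe was above background on 4 of 6 young and 6 of 6 old arrays, so its younger level is near the limit of detection. No other probe of the array shares 18 or more bases with it.

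Its nearest detected named gene probe, that of Gm16476 at 28.6 kb on the same strand, had a change of 0.35 (SE 0.08, limma adjusted p = 0.127). Within 1 Mb, 27 other tested probes changed by -0.54 to 0.75 and 0 of them passed. With normexp background correction the chromosome 12 change was 0.33 (limma adjusted p = 0.160, with a range of 0.000656 to 0.941 over the alternatives tried), and the call was lost. Within the 3 slides, each with 2 arrays of each age, its changes lay between 0.86 and 1.20, and those of the chromosome 1 member were 1.31, 2.23 and 2.21.

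Members with separated values that missed the threshold were led by chr2:94008913-94019798 reverse. Its probe at position 94011595 had values of -3.03, -3.11, -2.76, -3.11, -2.79 and -3.27 at 6 months and -3.88, -3.75, -3.99, -3.90, -4.69 and -3.43 at 20 months. It stood above background on 6 of 6 young arrays and on 0 of 6 old ones, so its old level is below the detection rule. With each old value raised to at least the dimmest signal well above background on its array, it was 1.61-fold lower at 20 months. That signal is no upper limit for undetected probes, so 1.61-fold is not a firm bound. The measured difference was -0.93 (SE 0.17, limma adjusted p = 0.0521). Over the alternatives tried it lay between -1.19 and -0.19. The second probe of this interval differed by -0.22 (limma adjusted p = 0.783). The first probe is a member through the 6-month arrays alone, so a difference in this direction was built into its selection and is given as a description.

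The chr14:52874069-52877398 reverse member, 7.19 kb from Rab2b on its strand, came next. Rab2b encodes a small GTPase of membrane traffic. Values were -2.62, -2.53, -2.75, -2.69, -2.40 and -2.13 at 6 months and -3.25, -3.17, -2.91, -2.90, -3.25 and -3.22 at 20 months, again without overlap. The difference was -0.60 (SE 0.11, limma adjusted p = 0.0586). Rab2b itself differed by 0.15 (SE 0.09, limma adjusted p = 0.746).

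On chr12:5303823-5379098 reverse all 3 probes had higher means at 20 months. The differences were 0.61, 0.51 and 0.78, with limma adjusted p of 0.0943, 0.108 and 0.161. Averaged over the 3 probes, the interval measured -1.85, -1.99, -1.87, -1.83, -1.70 and -2.15 at 6 months and -1.56, -1.07, -1.50, -1.31, -1.08 and -1.07 at 20 months. Every old mean lay above every younger one. When all probes of an interval strand were averaged, an alternative chosen after the data had been seen, 4 of 2411 interval strands passed: this one with a difference of 0.63 (limma adjusted p = 0.0345), the chromosome 1 and chromosome 12 members, and chr2:94008913-94019798 reverse. The last is given no difference, because 1 of its 2 probes is the one not well above background on any old array. That probe is a member through the 6-month arrays alone. A fall was thus built into the selection of this interval strand, and its pass is a description. The background of that fit was 0.300% of 20637 interval and gene means.

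The remaining members with separated values named by the rule had smaller or noisier differences. They were chr15:83266264-83294664 reverse at 0.54, chr18:35142575-35269099 forward at -0.85, chr1:88384134-88384902 forward at -0.68 and chr5:123582742-123588202 forward at -0.42. None of these 4 passed the test. Their smallest differences over the alternatives tried were 0.18, -0.19, -0.13 and -0.10, in the order given.

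Some intervals were measured by several probes with like differences that did not pass, and they were picked after their values were seen. The 3 probes of chr10:62267317-62269871 reverse, near Tet1, an enzyme that oxidises 5-methylcytosine, differed by -0.68, -0.70 and -0.70, with a smallest limma adjusted p of 0.161. Their mean was -1.12, -0.79, -1.56, -1.72, -1.55 and -1.27 at 6 months and -2.03, -1.52, -2.11, -2.29, -2.24 and -1.96 at 20 months, so that the ages overlapped in replicate 2 of the older mice alone. The 5 probes of chr10:83181374-83249774 forward, near 1500009L16Rik, differed by 0.29 to 0.43, with a smallest limma adjusted p of 0.157. Their mean lay between 0.27 and 0.77 at 6 months and between 0.77 and 0.91 at 20 months. Among the 633 interval strands with at least 3 members, the differences of all probes were positive in 121 and negative in 139.

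**Figure D2:**
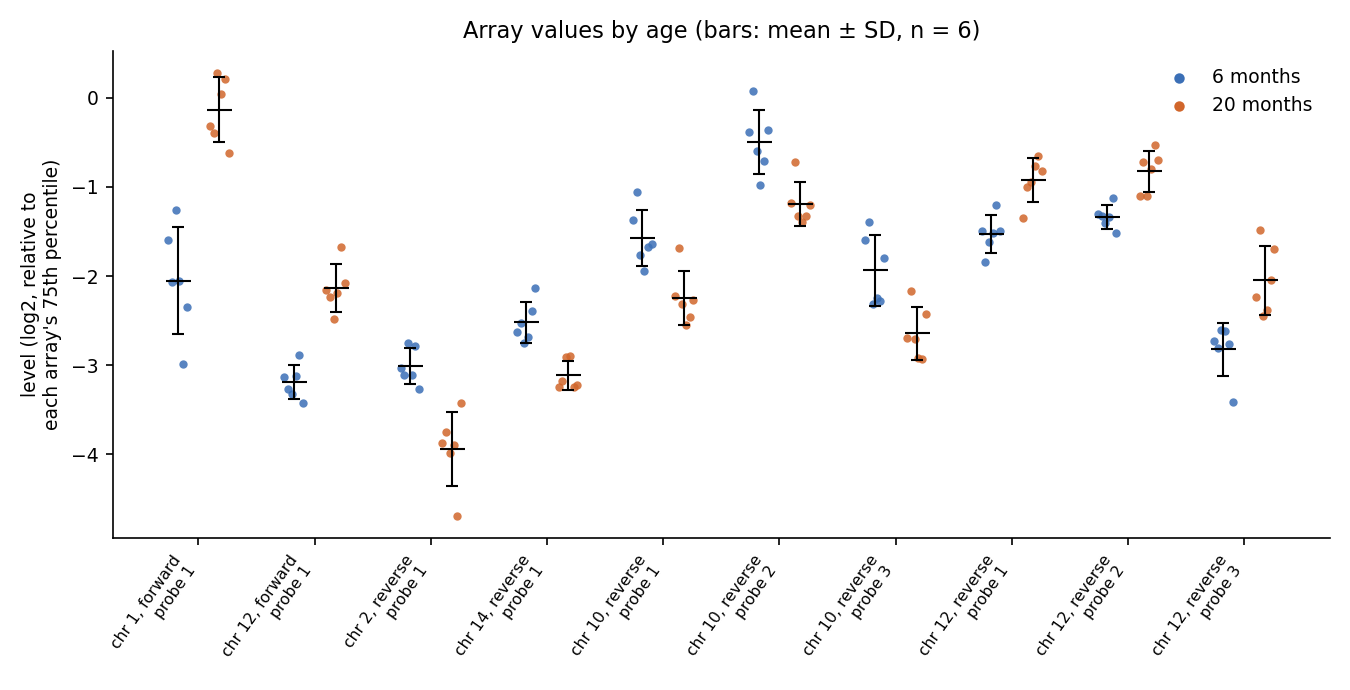
Log2 signal relative to the array's 75th percentile in each mouse of 6 and 20 months for the single probes described on chromosomes 1, 12, 2 and 14 and for the 3 probes each of the chromosome 10 (near Tet1) and chromosome 12 reverse intervals, with points for single arrays and bars for mean ± SD. The 6 old values of the chromosome 1 and chromosome 12 members lie above the 6 younger ones, and those of the chromosome 2 and chromosome 14 members lie below them.

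Detection that differed with age was a matter of dim probes. There were 26 members (0.550%) above background on 6 of 6 arrays of 1 age and on at most 2 of the other, against 0.221% of all tested probes. Of these, 24 were detected more often at 6 months and 2 at 20 months, and over all tested probes the numbers were 42 and 19. Their levels lay between -3.56 and -2.99, where small differences cross the detection limit, and their differences between -0.93 and 1.58. The test called 0 of them, at a smallest adjusted p of 0.0521 (limma), and 15 had an unadjusted p under 0.05. Each of the 26 meets the rule of 6 arrays through 1 age alone, so a difference in that direction was built into its selection. Their differences and p-values are therefore given as a description. In 2 of the 26 only 6-month arrays stood above background.

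The second of those was chr12:53669634-53672010 forward, 3.46 kb from Arhgap5. It measured -3.00, -3.51, -2.96, -3.51, -3.33 and -3.40 at 6 months and -4.19, -3.93, -3.83, -3.56, -3.99 and -3.48 at 20 months. The values overlapped slightly (difference -0.55, limma adjusted p = 0.226). With old values raised to the dimmest signal well above background, it was 1.34-fold lower at 20 months, which is not a firm bound either. In the other direction, chr4:35106125-35127700 reverse differed by 1.58 (SE 0.48, limma adjusted p = 0.339), with 2 of 6 young and 6 of 6 old arrays above background. This probe meets the rule through the old arrays alone, so its difference is a description too. Its young values ran from -5.10 to -2.68 and overlapped the old ones, which ran from -3.73 to -1.31.

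Antisense pairs are the second comparison: for the 398 intervals with signal on both strands, the change of the forward strand was set against that of the reverse strand in the same mice. The test called 0 of 398 (0%) at a smallest adjusted p of 0.169, and 25 had an unadjusted p under 0.05 (limma). With normexp background correction 1 pair passed, chr1:74084292-74138492, and that pair also had the smallest p otherwise. Its forward strand differed by 0.39 and its reverse strand by -0.25 between the ages, a gap of 0.64 (SE 0.14). Without 20 months replicate 3 the gap was 0.74, and the pair passed as well. The changes of the 2 strands had the same sign in 213 of 398 intervals. Their correlation across intervals was 0.06, and both strands share the arrays and their scaling.

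The intervals whose dimmer strand was brightest gave signal on both strands in every mouse. For chr12:73838608-73862621, 30.3 kb from Ppm1a, a protein phosphatase, the levels were 7.59 forward and 7.99 reverse, and the changes -0.01 and 0.04. The values followed with 5.67 and 3.22 for chr5:34696192-34722842 near Rnf4, a ubiquitin ligase, and 2.74 and 5.78 for chr5:35975265-35982561 near Acox3, an enzyme of peroxisomal fatty acid oxidation. For chr14:115423660-115463160, the interval of Mir17hg, host of the miR-17-92 cluster, they were 3.03 and 2.42. The array's own Mir17hg probe was at -2.98, with SDs of 0.66 at 6 months and 0.86 at 20 months. Whether the interval's signal is that of Mir17hg was not tested. For chr14:26834450-26847000 the forward and reverse levels were 5.10 and 2.35, and the forward probe shares 30 bases with a probe of Anxa11.

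Within these pairs the spread between mice was mostly small. In the Mir17hg interval the forward strand probe measured 3.18, 2.65, 3.12, 3.26, 3.14 and 2.83 at 6 months and 3.07, 2.93, 3.12, 2.89, 2.93 and 3.17 at 20 months. The reverse strand measured 2.75, 2.22, 2.57, 2.56, 2.37 and 2.36, and then 2.56, 2.34, 2.40, 2.16, 2.26 and 2.46. In both strands 6 months replicate 2 was among the lowest, and the ages overlapped. The reverse probe of chr14:26834450-26847000 was the exception, with SDs of 0.79 and 0.72 at the 2 ages. In 59 intervals the probes of both strands overlap in position, as printed above for Mir17hg and Acox3, so that the same double-stranded stretch is read from both sides.

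**Figure D3:**
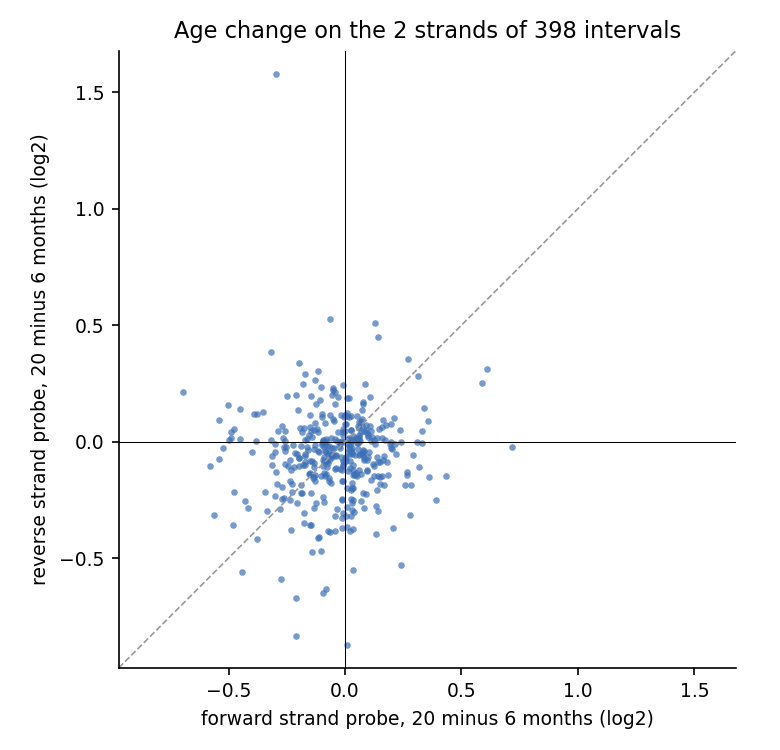
Change with age (20 minus 6 months, log2) of the reverse strand against that of the forward strand for the 398 intervals with a member on both strands. The points form a cloud around 0 without a slope. Their correlation is 0.06, and 213 pairs have changes of equal sign.

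The third comparison set each member's change against that of the nearest detected named gene within 100 kb, for 3940 members. The test called 0 of 3940 (0%), at a smallest adjusted p of 0.206, and 245 had an unadjusted p under 0.05 (limma). Members close to a gene and on its strand resembled it most in description. Within 1 kb on the same strand 63.2% of 299 members had a change of the gene's sign (r = 0.41 across members), from 1 to 5 kb 55.8% of 414 (r = 0.31), and from 50 to 100 kb 49.8%. On the opposite strand within 1 kb the share was 56.5% of 138 (r = 0.21). Both values of a pair come from the same arrays, and neighbouring members share genes, so these are descriptions. The 80 members that overlap the position of a named gene's probe were not left out. Where that probe was detected, both can read the same RNA, and its part in these shares was not tested.

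The members nearest to a gene that itself passed the test did not pass. Cntn1, an adhesion molecule of the nervous system, rose by 1.26 (SE 0.22, limma adjusted p = 0.0378), and 5 members of chr15:92174226-92201201 forward and chr15:92197603-92208534 forward, 26.6 to 38.0 kb away on its strand, had changes of -0.52 to 0.08. All but 1 of these members lay at levels of -3.46 to -3.20, near the limit of detection, where a change is hard to read. The member at 0.23 changed by -0.09 (SE 0.14). The differences from Cntn1 lay between -1.78 and -1.18, none below a limma adjusted p of 0.206. With normexp background correction 3 passed, with smaller differences of -0.80 to -0.67. Samd5, a gene whose protein has a SAM domain, fell by 0.85, and its neighbour on chr10:9322308-9332183 reverse differed by -0.06. 9330179D12Rik fell by 0.47, and 5 members of chr6:127111250-127142925 forward differed by -0.12 to 0.11. Without 20 months replicate 1, 2 members of chr1:135956616-135957485 reverse near Fmod, which encodes the collagen-binding proteoglycan fibromodulin, passed against that gene.

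The members are not spread evenly, and 3 stretches hold the most when members less than 50 kb apart are chained. The stretch with most lies on chromosome 16 from 43623790 to 43642004, next to Zbtb20, a transcriptional repressor with zinc fingers. This stretch holds 26 members of 4 interval strands. Its forward probes reached 5.76, as in the probe at position 43640454, while its 10 reverse probes lay between -3.53 and -0.91. Changes ran from -0.42 to 0.44 with a median of 0.09, 21 of 26 were positive, and the smallest limma adjusted p was 0.464. Neighbouring members can report the same RNA, so they are not counted as independent observations. Whether they do so here was not tested.

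The Malat1 and Neat1 stretch on chromosome 19 from 5795752 to 5845497 held 24 members of 7 interval strands, with levels from -2.72 to 9.63. The 3 probes of chr19:5834117-5835940 reverse near Neat1 were at 1.42, 1.15 and 0.69, with SDs of 0.43 to 0.51 between mice. The stretch has 14 forward and 10 reverse members, and Malat1's own probe is reverse. Changes had a median of 0.05, 20 of 24 were positive, and the smallest limma adjusted p, 0.159, belonged to a forward probe at position 5844573 with a difference of 0.41 (SE 0.10). Its mean was -2.17 ± 0.09 at 6 months and -1.76 ± 0.20 at 20 months (SD, n = 6 each).

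The stretch on chromosome 3 from 30048854 to 30125796 lies near Mecom, a zinc-finger transcription factor known from blood stem cells. This stretch held 24 members of 9 interval strands. All but 1 were on the reverse strand, levels ran from -3.69 to 0.75, and the smallest limma adjusted p was 0.722. On chromosome 17, 20 members of 6 interval strands from 39980297 to 39985688 lie at Rn18s-rs5, a ribosomal RNA sequence. Their levels were 0.17 to 7.21, with 10 members on each strand. Near the interferon-induced genes Ifi204 and Ifi207 on chromosome 1, 16 members, all reverse, had positive differences of 0.02 to 0.50 (median 0.24), none below a limma adjusted p of 0.543. This last pair of stretches was chosen after its values were seen.

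**Figure D4:**
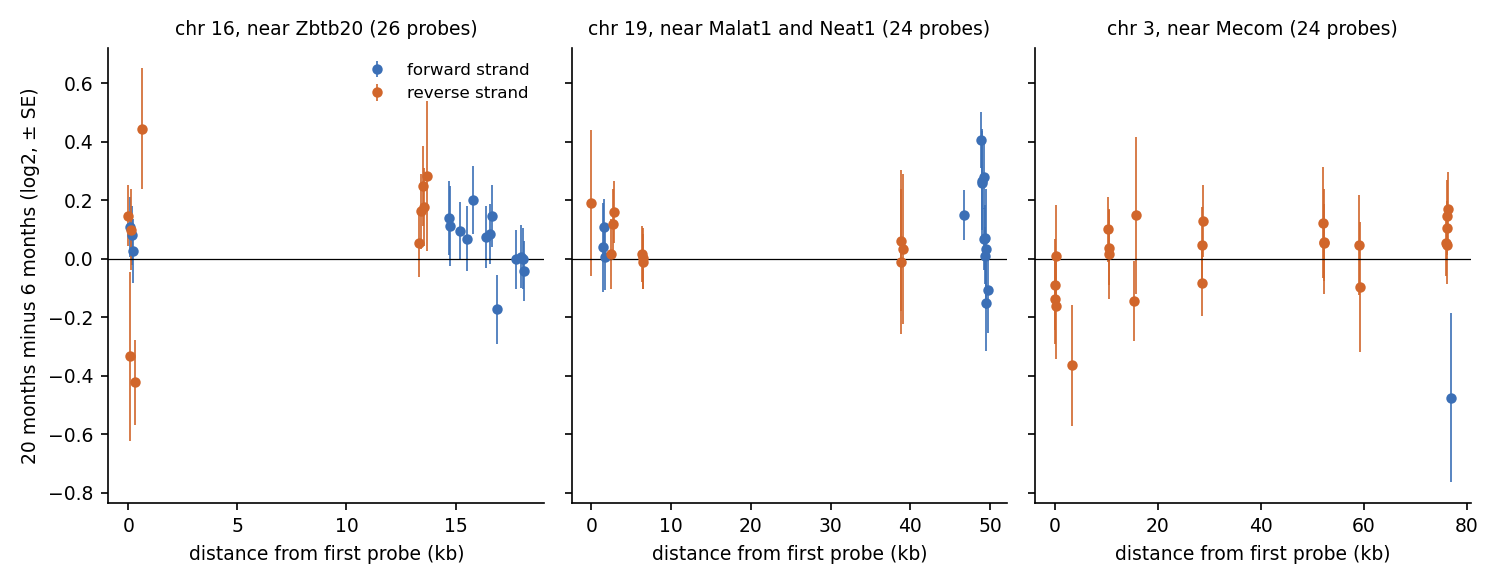
Change with age (20 minus 6 months, log2, with its SE as a bar) of the members in the stretches near Zbtb20, near Malat1 and Neat1 and near Mecom, by distance from the first probe in kb and by strand. The changes lie between -0.48 and 0.44, on both sides of 0 in each stretch.

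Between mice of 1 age, the 6 most variable members fell into 2 sets. The first is on chromosome 5, where 4 of the 6 lie in chr5:14943275-14944205, chr5:15033568-15033987 and chr5:15146475-15170100, all forward. The probe at position 15168445 measured -2.86, -1.20, -0.53, -5.80, -4.11 and -0.83 at 6 months and -3.43, -0.77, -1.58, -0.32, 0.16 and -3.24 at 20 months. Replicates 1, 4 and 5 at 6 months and replicates 1 and 6 at 20 months were the 5 lowest, so that both ages held low and high mice. The probe at position 14944100 was lowest in the same 5 mice, with -2.91, -1.14, -0.47, -4.36, -4.96 and -0.65 and then -2.87, -0.73, -1.66, -0.37, 0.28 and -3.16.

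The pattern is not limited to chromosome 5. Across the 12 arrays the probe at position 15168445 correlated at 0.93 with a Neat1 probe, at 0.95 with probes of Chpf2 and Leng8 and at 0.91 with one of Meg3, another long noncoding RNA. Of these genes, Chpf2 lies on chromosome 5 as well and the others do not. The probes were picked from the most highly correlated of all tested probes. Their SDs over the arrays were smaller, 0.53, 0.29, 0.25 and 0.42. All share the arrays and their scaling, and what moves with the pattern was not tested.

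The chromosome 5 probes are not independent of each other. The near-identical pairs printed above differ by 1 and 2 bases and tracked each other to within 0.77 and 0.57 log2 units on every array. The changes with age of 3 of the 4 members lay between 0.69 and 1.03, and that of the fourth was -0.07, with standard errors of 0.80 to 0.92, and none passed the test.

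The second set comprises members that were low in replicates 2 and 3 of 6 months alone. The chr4:98943050-98959998 reverse probe measured -2.05, -5.67, -5.47, -1.38, -1.92 and -2.67 at 6 months and -2.24, -2.72, -2.38, -2.66, -2.15 and -3.20 at 20 months. The chr4:33375464-33377138 reverse probe measured -0.35, -4.97, -2.91, -0.27, -0.09 and -1.18 and then -0.56, -1.33, -0.97, -1.02, -0.78 and -1.37. In both, the 2 low arrays lay far below the other 10, whichever age these had. Replicates 2 and 3 of 6 months were on the same slide, together with replicates 1 and 2 of 20 months.

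A sequence feature went with this pattern. In 4 members the 2 arrays lay more than 1 log2 unit below all others, and 4 of 4 contain GAGAGAGA in the sense of the probe. With a gap of more than 0.5 there were 7 such members, and 4 of the 7 contain it. That run of 8 letters, which may overlap itself, occurs in 19 members (0.402%) and in 48 of the 16166 interval probes (0.297%). The 2 arrays were the lowest of all 12 in 6 of the 19, among them the 4 members that drew attention to the run, so this count is no separate evidence. At the gap of 0.5 other pairs of arrays had as many low members. Replicate 6 of 6 months with replicate 3 of 20 months had 8, and replicates 3 and 5 of 20 months had 7. Over all pairs there were 75. The pattern in replicates 2 and 3 of 6 months was noticed in these data, and its cause was not tested. Leaving out replicates 2 and 3 of 6 months left 2 members called with age.

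**Figure D5:**
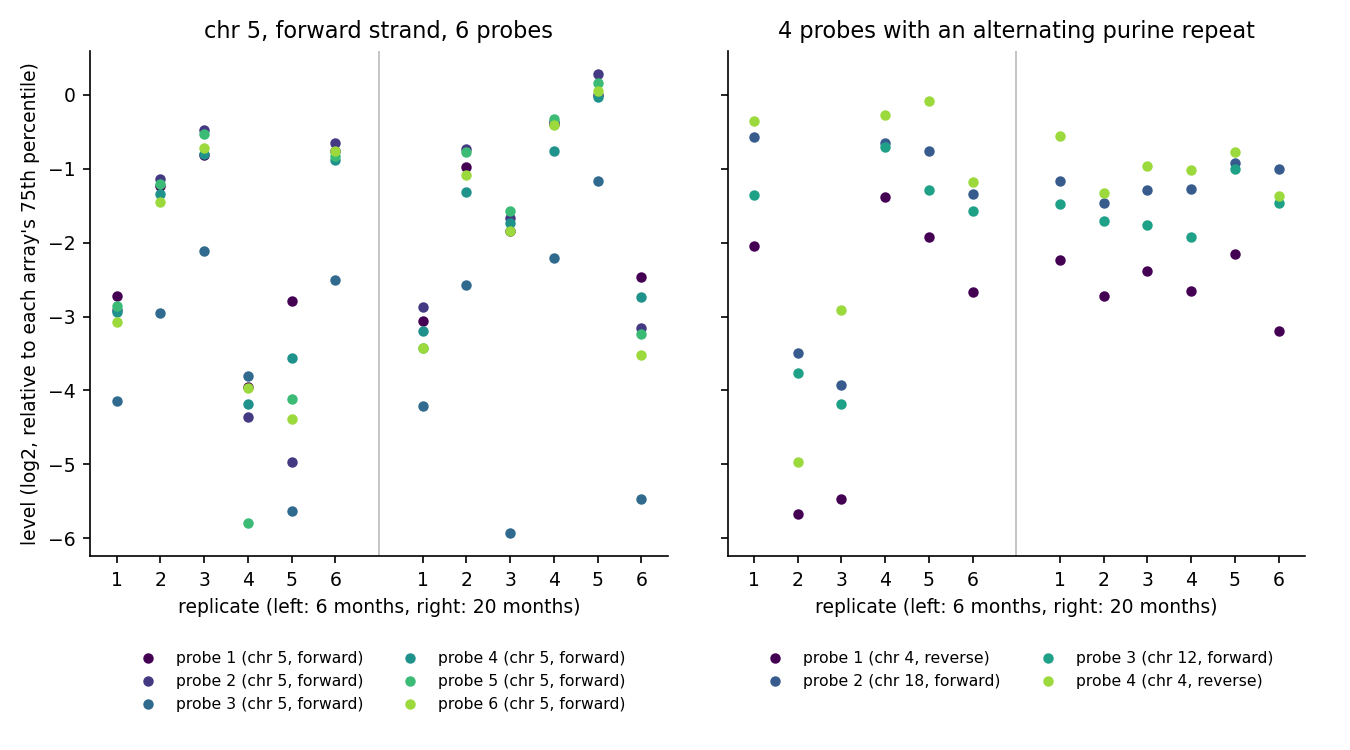
Log2 signal relative to the array's 75th percentile on each of the 12 arrays, by age and replicate, for 6 chromosome 5 probes (left) and for the 4 members with a run of alternating purines that were lowest on 2 arrays (right). Of the chromosome 5 probes, 5 are lowest in the same 5 mice of both ages, and the probes with an alternating purine repeat are low in replicates 2 and 3 of 6 months.

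Single arrays also stood out among dim members. On 20 months replicate 5, 23 members lay more than 1 log2 unit above the next array. Together with 6 months replicate 4 it was more than 0.5 above the rest in 24 members. On these 2 arrays, as given above, more probes passed the background test than on any other. Without them 2 members passed the test, and both were the chromosome 1 and chromosome 12 members.

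Named long noncoding RNA genes on the same arrays served as a reference list of 50 genes. Of these, 37 have a probe, and 27 were above background. The test called 0 higher and 0 lower, with a median change of 0.01, 14 of 27 positive and a smallest adjusted p of 0.567, and 2 had an unadjusted p under 0.05 (limma). The brightest probes in the list were those of Neat1 at 4.71, with a change of 0.43 (SE 0.26), of Peg13, an imprinted RNA, at 4.69 (0.03, SE 0.10), of Norad, which binds Pumilio proteins, at 3.97 (0.11, SE 0.07), and of Airn, the imprinted antisense RNA of Igf2r, at 3.17 (0.10, SE 0.12). The list's median change was thus near 0, as was that of the members.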

How the data were processed

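RNA of 12 aortas was measured on 12 Agilent 1-colour arrays. Per the file headers, the authors scanned them with Feature Extraction 10.7.1.1, and the deposited intensity is a processed signal with background subtracted and no scaling between arrays. The scanner's background test is deposited as a flag of 0 or 1 per spot. A deposited table of log2 values, centred per probe by steps not given in the sources used here, was an alternative; its column medians lay between -0.0345 and 0.0120.

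Spots marked as outliers were left out, replicate spots averaged, and log2 signals set relative to each array's 75th percentile. A probe was tested if well above background on at least 6 arrays. Ages were compared per probe by the moderated linear model of limma 3.58.1 in R 4.3.3 over all 12 arrays with age alone as a term, and p-values were adjusted (Benjamini-Hochberg) over all 27583 tested probes. Strand and neighbour comparisons fitted the per-array difference of 2 probes, using for a strand or a gene the probe with the highest mean. Lists and errors are described by counts and medians. Bounds set the detected group against the dimmest signal well above background on each array.

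Gene names came from a RefSeq table of GRCm38.p6, by accession for 26395 probes, by symbol for 3851 and by synonym for 735, and 8483 were not matched. Its coordinates were not used. Python 3.11.15, pandas 2.3.3 and matplotlib 3.10.9 served for counts and figures. On simulated data of the age comparison, 62% of 1.5-fold, 90% of 2-fold and 98% of 3-fold changes were recovered over 27583 probes, with 5.41% false calls.

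Named members were every one that passed, the 5 largest separated differences in each direction, the 8 highest levels, the 6 largest spreads, the 5 both-strand intervals whose dimmer strand was brightest, the 3 stretches with most members, and those detected at 1 age. The members and lists were chosen with earlier results of these data known. Replicate numbers did not pair the mice. Alternatives covered background correction, scaling, the filter, slides, replicate numbers, weights and single arrays left out. The number of arrays limits the precision. Sequences of chromosome 18 and of probes on unplaced sequence are not printed, and 1 of the 8 members with the highest levels is not reported here.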

Additional observations from a re-analysis of the deposited data

Results flagged for a closer look

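Of 68 groups of 6 values examined over 34 members, 5 held an array whose gap to the next value exceeded Dixon's critical share of the range for 6 samples. Chance gives about 1 in 20 such groups. The chr12:5303823-5379098 reverse probe at position 5371053 measured -3.42 in 6 months replicate 6, with the next value at -2.81. The chr1:88384134-88384902 forward probe measured -3.92 in 20 months replicate 5, the next being -3.35. Both are dim members whose ages did not overlap and that did not pass the test.

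The other 3 are bright. The chr17:17481706-17482457 reverse probe measured 8.06 in 20 months replicate 1, above 7.88. The chr11:22681800-22707775 reverse probe measured 7.80 in 20 months replicate 6, above 7.60. The chr5:35975265-35982561 reverse probe measured 6.31 in 20 months replicate 1, above 5.76. In that array the heart muscle markers were highest, and their part in these values was not tested.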

How the results depend on the processing

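Against 2 members called with age, 1 was called with normexp background correction, 1 with the filter that asks for signal on all 12 arrays (3570 members), 6 with slide as a fixed block, 6 with slide as a random block (intraslide correlation 0.18), 5 with array weights, 4 of 2411 when probes of an interval strand were averaged, and 0, 0 and 0 within slides 1, 2 and 3 alone, where 2 arrays face 2. With the 75th percentile taken over probes above background on all arrays 3 were called. Leaving out 1 array gave 2 to 3, and both called members passed in all 12 such fits. Same-numbered mice did not deviate together (correlations from -0.32 to 0.27). With replicate number as a block 3 members were called, and 23 probes in all in place of 71.

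For strand pairs, 1 was called with normexp and 0 to 1 when 1 array was left out. For members against their nearest named gene, 3 were called with normexp, all against Cntn1, and 0 to 2 when 1 array was left out (2 without 20 months replicate 1, 1 without replicate 2). The causes were not tested. The chromosome 1 member passed in 27 of 30 alternatives, with changes from 1.16 to 2.23, and failed within single slides. The chromosome 12 member passed in 25 of 29, with changes from 0.33 to 1.20, and failed with normexp and within single slides. No named member changed sign where it was called. Averaging the probes of an interval and leaving out replicates 2 and 3 of 6 months were chosen after seeing the data. The chr2:94008913-94019798 reverse strand called by averaging holds a probe whose fall was built into its selection. Dim members near background limit the detectable difference.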
